A study of Homo sapiens with 9 samples.

Results

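Common fragile sites are long stretches of the genome that break or show gaps on metaphase chromosomes when DNA replication is slowed. They lie mostly in very long genes that replicate late and hold few replication origins. The Fanconi anaemia pathway acts at such sites: FANCL is the ubiquitin ligase that modifies FANCD2, and FANCD2 gathers at fragile sites under replication stress. γH2AX is the histone H2AX phosphorylated by the kinases ATM, ATR and DNA-PK, and it spreads along chromatin on both sides of a DNA break or a stalled fork.

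The 8 gene bodies examined here span well-known common fragile sites: FHIT, WWOX, LRP1B, MACROD2, IMMP2L, CNTNAP2, CTNNA3 and AUTS2. They were chosen by name, and every γH2AX region overlapping their hg19 coordinates was taken, 130 of the 234983 regions called in all 8 libraries. The 8 gene bodies add up to 12.7 Mb, 0.420% of the 3034.78 Mb spanned by chromosomes 1 to 22 and X. Regions came from γH2AX ChIP-seq of K562, a human cell line established from a myelogenous leukaemia, either wild type (WT) or with FANCL knocked out (KO). Cells had received PMA, a phorbol ester that makes K562 cells differentiate, at 5 nM or a mock treatment, for 72 h, which gave 4 groups of 2 libraries: WT mock and WT PMA, and KO mock and KO PMA. One more library was the input of WT mock cells, and it served as the control for all 8 lists. The series asked how the knockout affects DNA repair and the differentiation of blood cells.

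Depth was 15.6 to 27.2 M tags per library, and 1.39 to 7.96% of the tags lay inside regions. Between 11959 and 42896 regions were called per library, and the number of tags a window of 500 bp needed ran from 12 to 16, which is 5.89 to 7.69 tags per 10 M. The lists hold no measurement of FANCL, of expression, of replication or of chromosome breakage, so genotype, cell line and the fragility of these sites in K562 cells rest on the labels and on textbook knowledge. The labels do not say whether the KO line was 1 clone, nor whether the 2 replicates of a group were grown as separate cultures. P-values therefore measure the spread between these libraries alone, and it may be technical. Only called regions are listed. A gene body at 0 can therefore hold weak γH2AX, missing DNA or sequence to which reads do not map, and these cannot be told apart.

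Most of the signal described below lies in the 5′ part of the IMMP2L gene body, inside the gene and not at its promoter. The promoters of the 3 members on chromosome 7 are shown for their sequence. Sequences are from RefSeq (GRCh38.p14), 250 bases before to 50 bases after the annotated start, on the strand of the gene. Capitals mark the motif CG, which reads the same on both strands.

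IMMP2L: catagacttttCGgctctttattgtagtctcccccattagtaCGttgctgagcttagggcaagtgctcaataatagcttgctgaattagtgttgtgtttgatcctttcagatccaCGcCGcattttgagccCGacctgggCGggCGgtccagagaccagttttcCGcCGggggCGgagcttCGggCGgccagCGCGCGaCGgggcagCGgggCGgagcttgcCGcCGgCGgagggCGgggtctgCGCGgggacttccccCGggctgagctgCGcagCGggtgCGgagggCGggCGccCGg

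AUTS2: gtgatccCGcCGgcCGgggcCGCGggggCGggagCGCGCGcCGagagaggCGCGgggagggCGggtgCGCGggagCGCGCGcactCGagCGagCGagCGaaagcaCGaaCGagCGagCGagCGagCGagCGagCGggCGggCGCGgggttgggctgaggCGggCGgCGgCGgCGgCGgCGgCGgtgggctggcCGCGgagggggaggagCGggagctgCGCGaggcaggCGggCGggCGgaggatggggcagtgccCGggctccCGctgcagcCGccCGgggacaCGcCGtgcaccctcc

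CNTNAP2: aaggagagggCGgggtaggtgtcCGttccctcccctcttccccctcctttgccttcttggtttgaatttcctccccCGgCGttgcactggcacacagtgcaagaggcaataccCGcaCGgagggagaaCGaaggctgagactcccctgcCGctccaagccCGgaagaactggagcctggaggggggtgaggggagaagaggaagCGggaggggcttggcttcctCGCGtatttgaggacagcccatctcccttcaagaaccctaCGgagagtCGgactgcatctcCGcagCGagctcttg

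In these windows CG occurred 31 times in IMMP2L, at chr7:111562443-111562742 (minus strand), 55 times in AUTS2, at chr7:69598225-69598524 (plus strand), and 16 times in CNTNAP2, at chr7:146116551-146116850 (plus strand). The median over 35116 promoters was 14, and 96.0% of them held at least 1 CG. Of the 8 members, 7 were matched in the promoter table, with 10 promoters. The starts of AUTS2 and CNTNAP2, the first far above that median and the second near it, had no γH2AX region within 2 kb in any library. That of IMMP2L had 1 in a single library, and the starts of the remaining members had none.

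γH2AX regions were nearly absent from 7 of the 8 fragile site genes and clustered in the remaining one, IMMP2L, in WT cells. Of the 130 regions, 116 lay in IMMP2L, a subunit of the peptidase that processes proteins in the inner mitochondrial membrane. The other 7 genes, 11.8 Mb in all, held 14 regions over the 8 libraries. No region was called in any library in LRP1B (an endocytic receptor of the LDL receptor family), MACROD2 (a hydrolase that removes ADP-ribose from proteins), CTNNA3 (alpha-T-catenin, of cell-cell junctions) or AUTS2 (a nuclear regulator of transcription in developing neurons).

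The γH2AX regions inside the 8 genes covered 15.1 and 6.81 kb in WT mock replicates 1 and 2, and 36.0 and 15.5 kb in WT PMA. In KO cells the values were 5.63 and 2.5 kb for mock and 3.05 and 1 kb for PMA. Pairs of values are given in the order replicate 1, replicate 2 throughout. Every WT library was thus above every KO library, although the libraries with the most regions in all were those of KO PMA and WT PMA. As a share of all covered length in the library, the 8 genes took 0.157 and 0.0831% in WT mock and 0.115 and 0.0623% in WT PMA, against 0.0328 and 0.0144% (mock) and 0.00718 and 0.0029% (PMA) in KO cells. All 8 shares were below the 0.420% of the span that the genes occupy. With IMMP2L left out the covered length was between 0 and 3 kb per library, and the order of the groups changed: both KO mock libraries, at 3 and 2.5 kb, were then the highest.

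**Figure D1:**
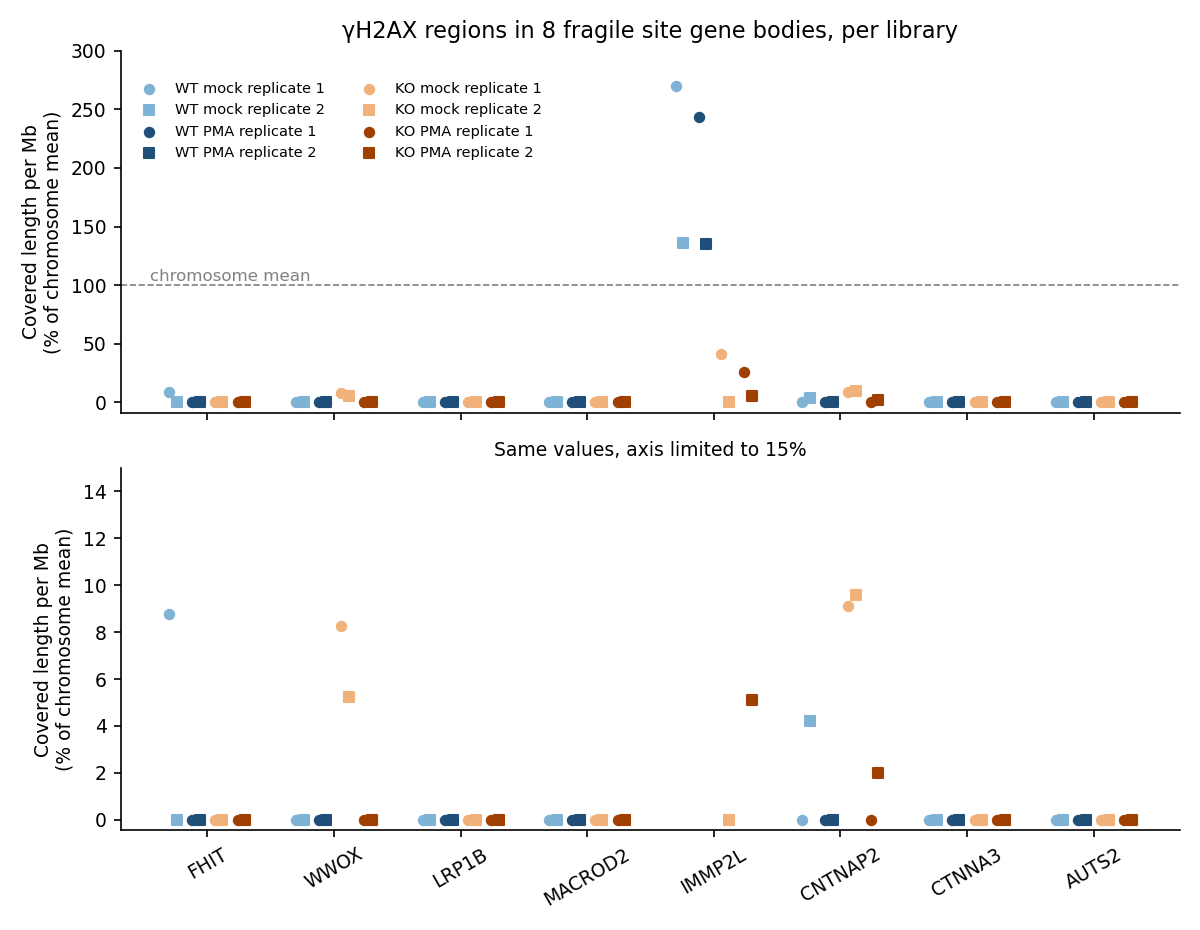
γH2AX-covered length per Mb of each gene body as a percent of the mean of its chromosome in the same library (vertical axis, %), for the 8 genes (horizontal axis). Each point is 1 library, coloured by group, and the lower panel repeats the values with the axis limited to 15%. IMMP2L lies above the dashed chromosome mean in the 4 WT libraries, from 136 to 270%, and below it in the 4 KO libraries. No other gene passes 15% in any library.

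Covered length per Mb was next compared with the mean of the same chromosome in the same library, as the log2 ratio after adding 1000 bp per Mb to both, with limma over all 3027 windows of 1 Mb and the 8 gene bodies. In both WT groups, 7 of 8 gene bodies were below their chromosome at an adjusted p under 0.05, and in both KO groups all 8 were. None was above, where 10.3% of all tested were above in WT mock, 18.3% in WT PMA, 14.6% for KO mock and 14.5% for KO PMA. A position below the mean is the usual state of a 1 Mb window in these lists: 65.3% of the windows and gene bodies tested were called below in WT mock and 60.3% in WT PMA, and 73.0% and 76.8% in the mock and PMA groups of KO cells. The members' count of 7 or 8 is to be read against that background. The median log2 ratio of the 8 genes was -1.93, -3.49, -2.19 and -3.18 in the mock and PMA groups of WT and then of KO cells, against -1.10, -1.23, -1.54 and -2.20 over all tested. For a gene at 0 in all libraries this ratio is set by the chromosome mean and the added 1000 bp alone, so its differences between groups follow the chromosome and not the gene. Against the median 1 Mb window of the chromosome in place of its mean, 2 of 8 gene bodies were below in WT mock and 4 of 8 in KO mock. The count was 5 of 8 in KO PMA and again 7 of 8 in WT PMA. The share of all windows below that reference was not counted, so these counts have no background to be read against.

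Windows as long as the 4 empty genes were empty less often than windows of 1 Mb. The former were counted on the chromosome of each gene and the latter over all chromosomes, so length and chromosome both differ. Of 3027 windows of 1 Mb, 902 (29.8%) had no region in any of the 8 libraries. Windows as long as LRP1B on chromosome 2 were empty in all 8 libraries in 13 of 127 cases (10.2%), and windows as long as AUTS2 on chromosome 7 in 24 of 133 (18.0%). The share was 12 of 76 (15.8%) for CTNNA3 on chromosome 10 and 5 of 30 (16.7%) for MACROD2 on chromosome 20. Windows as long as the 4 empty genes were thus empty in 5 to 24 cases per chromosome. These can include windows that overlap the gene itself or DNA to which reads do not map.

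The surroundings of the 7 little-covered genes differed. FHIT, MACROD2 and AUTS2 lay in broad empty stretches. FHIT, a dinucleotide polyphosphate hydrolase and tumour suppressor at the fragile site FRA3B (chr3:59735036-61237133), had no covered base within 1 Mb on either side in any library. Its nearest region outside the gene was at least 1118 kb away. AUTS2 (chr7:69063905-70257885) was likewise 0 on both sides in 8 libraries, with at least 1424 kb to the nearest region. MACROD2 (chr20:13976146-16033842) had between 0 and 0.5 kb per Mb in its flanks. The one region inside FHIT, of 500 bp and 4.40-fold over input by the authors' value, was called in WT mock replicate 1 only.

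CNTNAP2 and CTNNA3 were instead little covered beside heavily covered neighbours. CNTNAP2, a neurexin-family adhesion protein of neurons and the longest of the 8 genes (chr7:145813453-148118090, plus strand), had its covered neighbour at the 3′ end, towards CUL1 and EZH2. That 1 Mb held 6.83 and 9.53 kb in WT mock and 75.5 and 64.6 kb in WT PMA, against 66.9 and 38.8 kb (mock) and 107 and 86.8 kb (PMA) in KO cells. The gene body held 0 to 0.651 kb per Mb. Downstream of the gene the mean was highest in KO PMA and lowest in WT mock.

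CTNNA3 (chr10:67679725-69455949, minus strand) had the covered side at its 5′ end, towards DNAJC12, SIRT1 and HERC4. The 1 Mb upstream held 12.6 and 9.65 kb in WT mock and 62.1 and 57.1 kb in WT PMA, against 4.79 and 6.28 kb (mock) and 28.7 and 13.9 kb (PMA) in KO cells. The mean there was lowest in KO mock and highest in WT PMA. How often 1 Mb windows order the groups in this way was not counted. The gene body and the 1 Mb beyond its 3′ end were 0 in all 8 libraries. The neighbour names are from RefSeq (GRCh38), which served here for the order of genes only.

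LRP1B (chr2:140988996-142889270, minus strand) and WWOX (chr16:78133327-79246564, plus strand) had sparse flanks. Upstream of LRP1B, 1.5 and 0.5 kb were covered in WT mock and 8.25 and 4.50 kb in WT PMA, and none in the 4 KO libraries. The downstream 1 Mb of LRP1B was 0 in every library. WWOX, an oxidoreductase and tumour suppressor at the fragile site FRA16D, had 0.25 to 2.26 kb per Mb in its flanks.

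**Figure D2:**
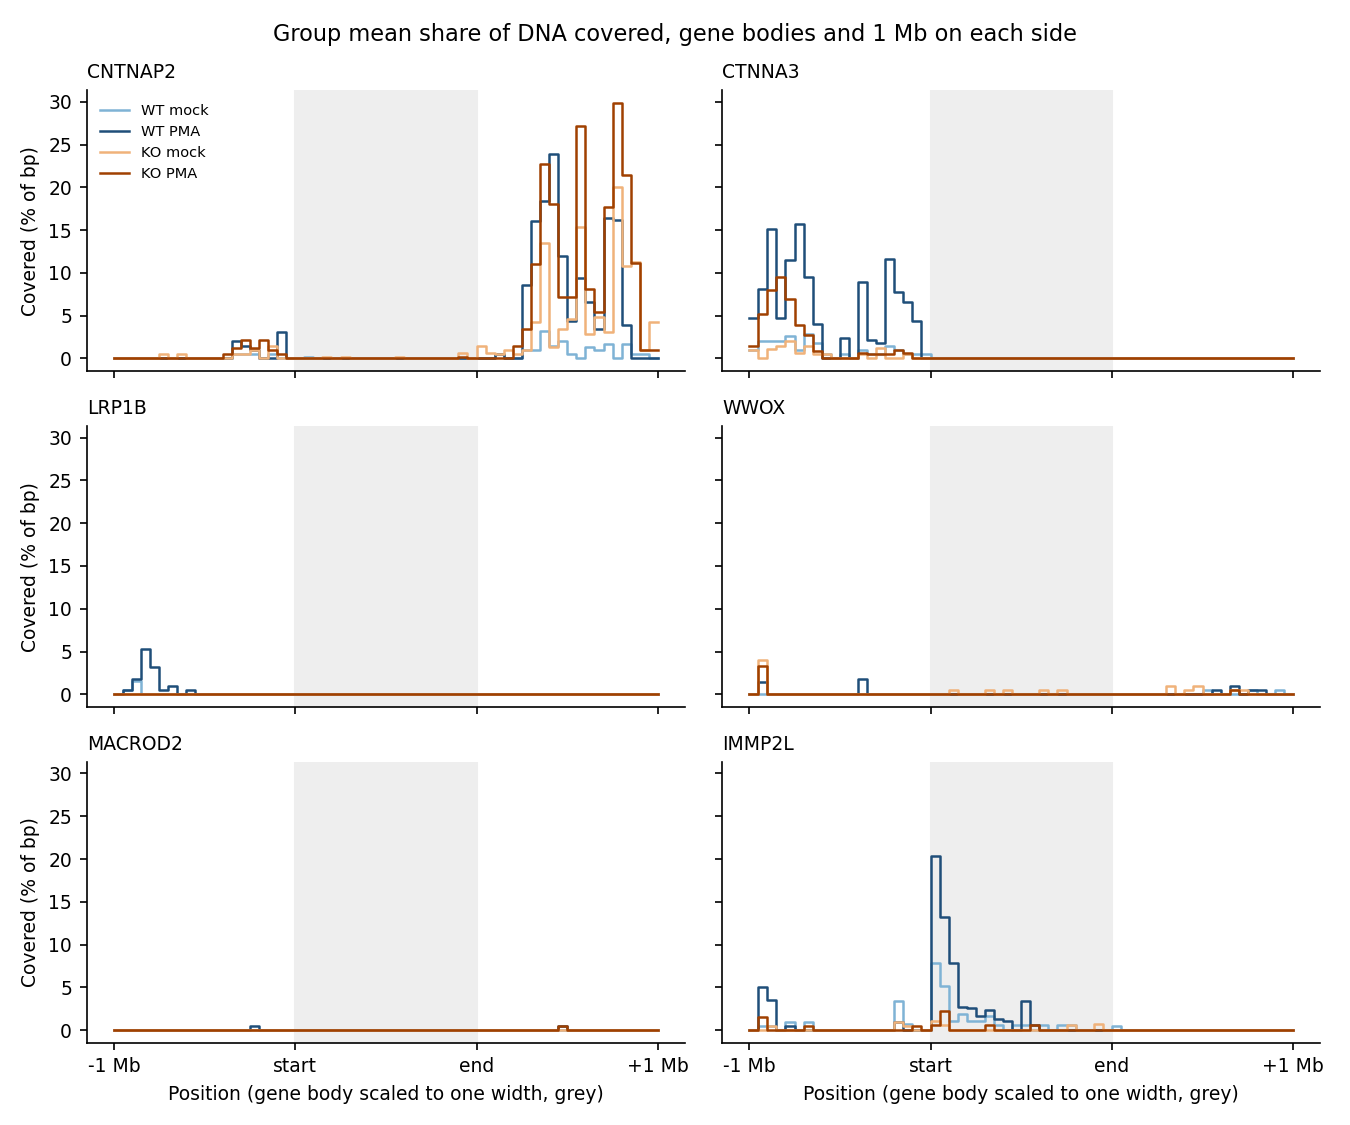
Group mean share of base pairs covered by γH2AX regions (vertical axis, %) along 6 of the gene bodies, scaled to one width (grey, 20 steps), and 1 Mb on each side in steps of 50 kb (horizontal axis, in the direction of transcription). Lines are the 4 groups, 2 libraries each. The covered DNA near CNTNAP2 lies mostly beyond the 3′ end and that near CTNNA3 beyond the 5′ end, while in IMMP2L it lies inside the gene, next to its start.

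Tested against the flanks with the same offset and limma fit, CNTNAP2 and CTNNA3 were below their flanks in all 4 groups. In WT mock these 2 of 8 were called lower and none higher, where 10.3% of all windows and gene bodies were lower and 6.10% higher. In WT PMA 4 of 8 were lower, WWOX and LRP1B being the others, against 30.5%. In KO mock it was CNTNAP2 and CTNNA3 again (11.6% lower and 7.18% higher over all), and in KO PMA the same pair and WWOX (21.0 and 11.8% over all). None was higher in either KO group. The log2 ratio of CNTNAP2 to its flanks was -2.34 (SE 0.24, adjusted p = 0.00788) in WT mock and -5.54 (SE 0.24, adjusted p = 0.00055) in KO PMA. CTNNA3 was lowest against its flanks in WT PMA, at -4.94 (SE 0.25, adjusted p = 0.0004). For a gene body at 0 this ratio is set by the flanks and the added 1000 bp alone. That was so for CTNNA3 and LRP1B in all 8 libraries, for CNTNAP2 in WT PMA and for WWOX where it was called. Differences between groups in these ratios then follow the flanks and not the gene. FHIT, MACROD2 and AUTS2 passed the threshold against their flanks in no group, their flanks being at or near 0.

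IMMP2L was the exception in both comparisons (chr7:110303106-111202573, minus strand). It had 26 and 11 regions in WT mock and 45 and 23 in WT PMA, against 5 and 0 (mock) and 5 and 1 (PMA) in KO cells. Covered length was 16.2 and 7.01 kb per Mb in WT mock and 40.0 and 17.2 in WT PMA, against 2.93 and 0 (mock) and 3.39 and 0.556 (PMA) in KO cells. The 4 WT libraries all lay above the 4 KO libraries, and how often 1 Mb windows show this order was not counted. Mock and PMA libraries overlapped in KO cells. They were adjacent in WT cells, where WT mock replicate 1 and WT PMA replicate 2 were nearly level. Replicate 1 was the higher library in every group and also the deeper one, and the part of depth in this was not tested.

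As a percent of the chromosome 7 mean in the same library, IMMP2L was at 270 and 136% in WT mock and 244 and 136% in WT PMA, against 41.0 and 0% (mock) and 25.8 and 5.12% (PMA) in KO cells. In limma's test it was not separable from the chromosome mean in WT mock (log2 ratio 0.84, SE 0.48, adjusted p = 0.149) or WT PMA (0.82, SE 0.48, adjusted p = 0.147). These ratios moved both ways with the processing. The WT mock ratio turned to -0.20 when 1 tag threshold was applied to all libraries and to -1.11 with regions of at least 1000 bp, and it passed the threshold above the reference with regions of at least 6-fold (0.88, adjusted p = 0.0437), with chromosome ends left out (1.64) and against the median window (2.90, adjusted p = 0.03). The WT PMA ratio passed above the mean with 1 tag threshold (1.04, adjusted p = 0.0431), with regions of at least 1000 bp (1.01, adjusted p = 0.0271), with an offset of 4000 bp (0.73) and with an equal number of top-scored regions per library (0.83), and above the median window (2.53). It was below the mean in KO mock (-2.01, SE 0.48, adjusted p = 0.00441) and KO PMA (-2.31, SE 0.48, adjusted p = 0.00182), although against the median window of the chromosome these ratios were 0.99 and 0.80. The KO mock call was lost without KO mock replicate 2 (-1.05), the KO PMA call without KO PMA replicate 2 (-1.69), and both with regions of at least 6-fold. Set among 176 windows of the same length on chromosome 7, it was higher than 160 in WT mock and 150 in WT PMA, against 117 (mock) and 115 (PMA) in KO cells. In KO mock 140 of these windows, and in KO PMA 141, were below the chromosome mean as well, so IMMP2L was in the company of most of its chromosome there.

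Against its own flanks IMMP2L was higher in WT PMA (log2 ratio 2.97, SE 0.67, adjusted p = 0.0222), where 17.2% of all windows and gene bodies were called higher. The ratio was 2.03 in WT mock (SE 0.67, adjusted p = 0.134), 0.42 in KO mock (adjusted p = 0.853) and 0.73 in KO PMA (adjusted p = 0.552), none past the threshold. The flanks held 0.25 to 2.98 kb per Mb in the 8 libraries.

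Within IMMP2L the regions gathered at the 5′ end, and hardly any lay just upstream of the start. The region nearest to the start, inside the gene, was 15.8 kb from it in both WT mock libraries and 0.993 and 7.77 kb from it in WT PMA. The first 100 kb downstream of the start held 8.61 and 3.57 kb in WT mock and 23.7 and 9.74 kb in WT PMA, against 1.5 and 0 kb (mock) and 2.05 and 0.5 kb (PMA) in KO cells. The 100 kb upstream of the start was 0 in 7 libraries and 0.5 kb in KO PMA replicate 2. From 100 to 200 kb inside the gene the covered length was 1.5 and 1.24 kb in WT mock, 5.10 and 2.06 kb in WT PMA, and 0 in all 4 KO libraries. The level thus declined into the gene in each WT library, and 59 of the 116 regions lay in the first 10% of its length.

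**Figure D3:**
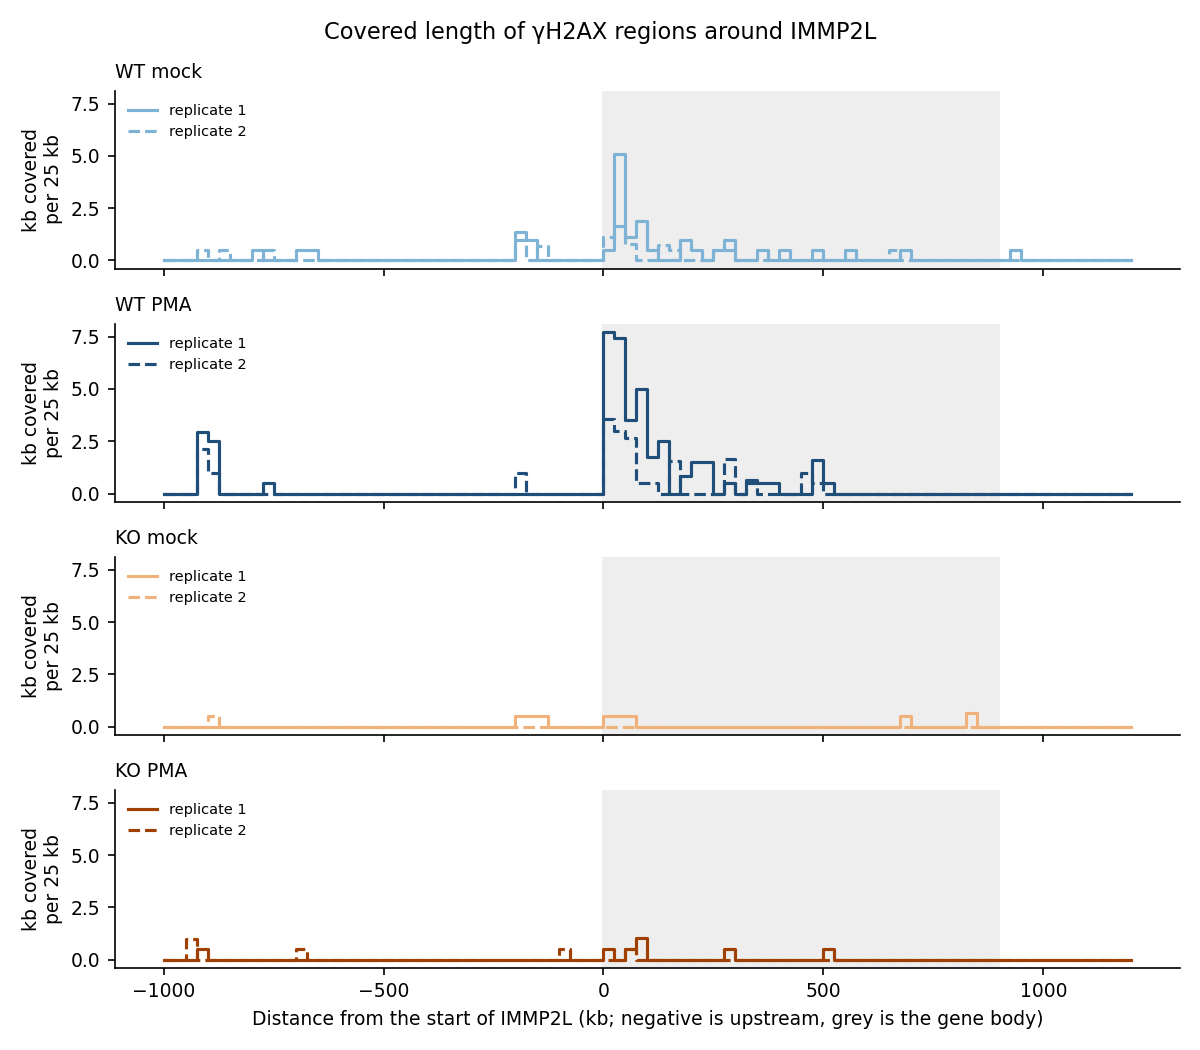
Covered length per 25 kb (vertical axis, kb) against distance from the start of IMMP2L (horizontal axis, kb, negative upstream), 1 panel per group and 1 line per replicate, with the gene body in grey. Both WT PMA replicates step up from 0 at the start of the gene and decline over the next 200 kb. The KO panels hold scattered single regions.

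The share of IMMP2L's covered length in the first 20% of the gene was 65.8 and 76.2% in WT mock and 77.6 and 76.4% in WT PMA. It was 56.9% in KO mock replicate 1, 67.2% in KO PMA replicate 1 and 100% in KO PMA replicate 2, which had a single region. The first 20% of the gene thus held more than an even share in each of the 7 libraries with a region in IMMP2L, although the 5, 5 and 1 regions of the KO libraries are few to place. In the gene order of RefSeq (GRCh38), DOCK4 is the next gene upstream of IMMP2L and LRRN3 lies inside it.

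Regions of IMMP2L were short and of ordinary strength for chromosome 7. Their median fold over input, the authors' value, was 5.05 and 5.57 in WT mock and 4.45 and 4.07 in WT PMA, against chromosome 7 medians of 4.66, 4.51, 4.62 and 4.38. The longest reached 2174 bp, in WT PMA replicate 1, and the median length was 500 bp, the size of 1 window. Scaled to 10 M tags, the input held 3.23 to 4.36 tags per kb (medians) in IMMP2L regions of the 4 WT libraries. It held 3.23 to 3.35 in all chromosome 7 regions of the same libraries.

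Of all 130 regions in the 8 genes, only some of IMMP2L's were called at the same place in both replicates of a group: 3 in WT mock, 10 in WT PMA and 0 in both KO groups. These made up 11.5 and 27.3% of the IMMP2L regions of the WT mock replicates and, counting 10 of replicate 1 and 11 of replicate 2, 22.2 and 47.8% of the WT PMA ones. The reproducible region with the highest lower fold in WT mock lay 15.8 kb inside the gene, at chr7:111186307-111186807 in replicate 1 (8.15-fold) and chr7:111186138-111186779 in replicate 2 (9.94-fold). In WT PMA it lay 26.9 kb inside, at chr7:111174419-111175628 (4.88-fold) and chr7:111174608-111175442 (4.85-fold). Of the 11 KO regions in IMMP2L, 5 (45.5%) overlapped a WT region, of which there were 105. How often regions elsewhere were called in both replicates, or overlapped a region of the other genotype, was not counted. These counts thus have no background, and the KO groups had few regions to compare.

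The 14 regions in FHIT, WWOX and CNTNAP2 were single windows, all exactly 500 bp long. They held 12 to 15 tags, at or just above the number each library required, with 3.30- to 6.76-fold over input. None overlapped a region of another library. How often single windows elsewhere do so was not counted.

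**Figure D4:**
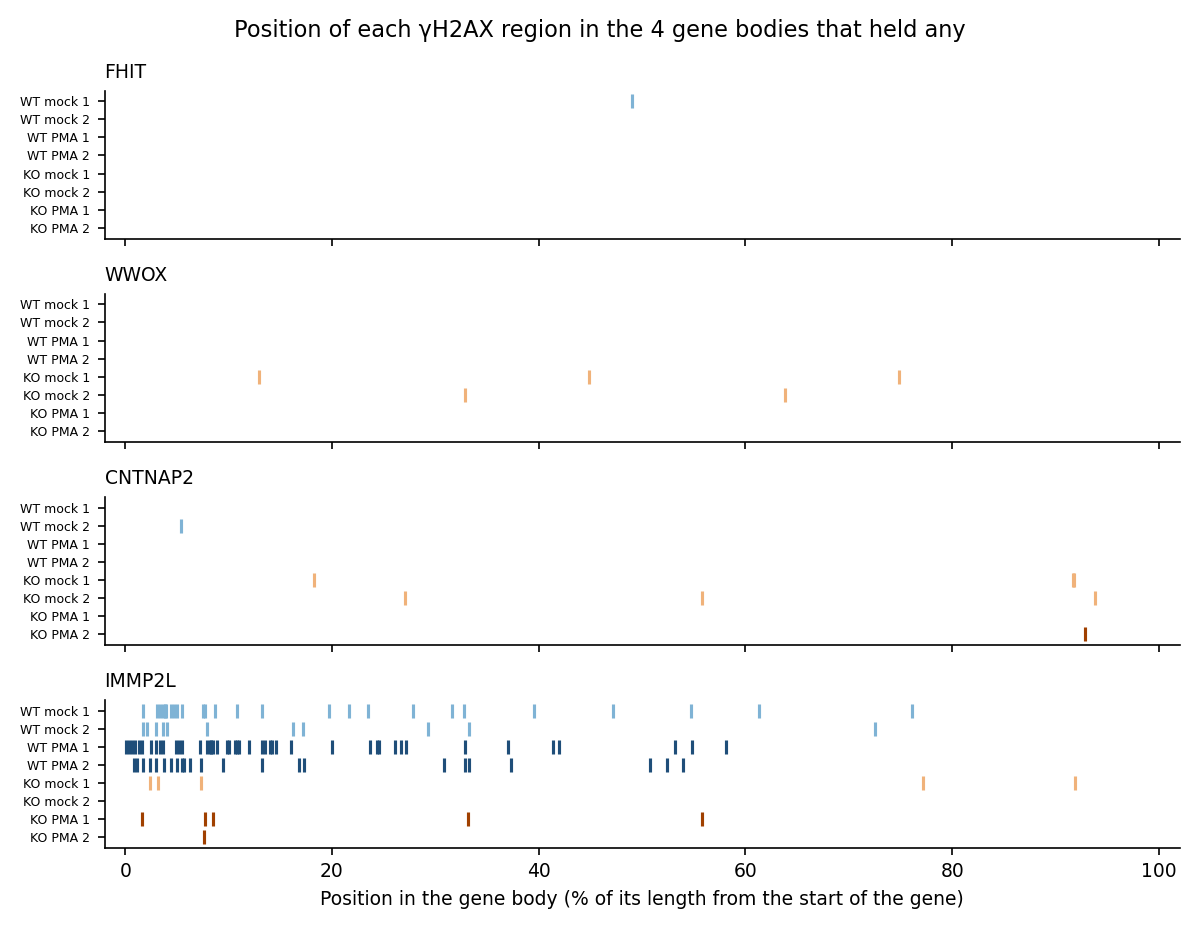
Position of each of the 130 regions along the 4 gene bodies that held any (horizontal axis, % of gene length from its start), 1 row per library. IMMP2L regions crowd towards the left, and WWOX and CNTNAP2 regions come mostly from the KO mock rows.

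CNTNAP2 had 8 regions in 4 libraries, 4 of them in its last 10%, on the side of its covered downstream neighbour. Its level was 0 and 0.217 kb per Mb in WT mock, 0 in both WT PMA libraries, 0.651 in both KO mock libraries, and 0 and 0.217 in KO PMA. WWOX had 3 regions in KO mock replicate 1 and 2 in replicate 2, which is 1.35 and 0.898 kb per Mb, and none in the other 6 libraries. In both CNTNAP2 and WWOX the KO mock libraries were the highest, by 2 or 3 regions of minimum size each.

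The genotype and treatment contrasts were fitted with limma on log2(covered bp per Mb + 1000) over the 8 gene bodies and all windows covered in at least 2 libraries, 1922 in all. The gene bodies were kept whatever their coverage, unlike the windows. LRP1B, MACROD2, CTNNA3 and AUTS2 had no region and FHIT had 1, so these would have failed the filter on windows. Counts out of 8 and shares of all windows are thus not like for like in any test of this fit. The contrasts share libraries and are not independent of each other. More γH2AX in a place and a more efficient immunoprecipitation of the whole library cannot be told apart, and the share of tags in regions differed between groups as given above.

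Comparing KO PMA with WT PMA, 1 of 8 gene bodies was lower, IMMP2L, by a log2 difference of -3.39 (SE 0.89, adjusted p = 0.0226), with means of 1.98 kb per Mb ± 2.01 (SD, n = 2) in KO PMA and 28.6 ± 16.2 (SD, n = 2) in WT PMA. Of all windows and gene bodies, 38.3% were called lower and 16.2% higher in this contrast, with a median of -0.70. Every other gene body was at 0 in both WT PMA libraries and could not be lower in KO PMA. The 1 of 8 thus cannot be weighed against that share. The call was lost without WT PMA replicate 1 and without WT PMA replicate 2, and also without KO PMA replicate 2. It was lost as well with an offset of 250 bp or with no filter on low windows, and the adjusted p ran from 0.00032 to 0.144 over the alternatives. Divided by the chromosome in the same library, the difference was -3.13 (adjusted p = 0.00032). KO and PMA cells had no input of their own, so fewer copies of IMMP2L in KO cells and less γH2AX cannot be told apart.

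Between KO mock and WT mock the IMMP2L difference was -2.57 (SE 0.89, adjusted p = 0.0748), with means of 1.46 kb per Mb ± 2.07 (SD, n = 2) and 11.6 ± 6.53 (SD, n = 2), and it missed the threshold. Divided by the chromosome in the same library it was -2.85 and passed (adjusted p = 0.00144), and over the alternatives the adjusted p ran from 2.02e-05 to 0.72. The difference between the KO effect under PMA and under mock was -0.82 (SE 1.26, adjusted p = 0.633), so the effects of the knockout in mock and in PMA were not shown to differ. In this interaction test 1 of 8 gene bodies was lower (WWOX) and 0 higher, where 27.5% of all were lower and 1.82% higher.

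In the same contrast, KO mock against WT mock, 2 of 8 gene bodies were higher and 0 lower, where 29.3% of all were higher and 5.25% lower and the median was 0.36. They were WWOX, by 1.08 (SE 0.12, adjusted p = 0.00165), and CNTNAP2, by 0.58 (SE 0.14, adjusted p = 0.0237). Divided by the chromosome in the same library, the WWOX difference turned to -1.08, past the threshold in the other direction (adjusted p = 0.00592), with a chromosome 16 mean of 2.98 kb per Mb in WT mock and 16.7 in KO mock. WWOX and CNTNAP2 rest on 5 and 6 regions of KO mock of 500 bp each. The CNTNAP2 call was lost without WT mock replicate 1, KO mock replicate 1 or KO mock replicate 2, its difference turned to -0.14 with regions of at least 6-fold, and neither call was made with regions of at least 6-fold, with regions of at least 1000 bp, or with an equal number of top-scored regions per library.

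None of 8 gene bodies passed the threshold in WT PMA against WT mock, and none had an unadjusted p under 0.05. Of all windows and gene bodies, 65.7% were higher and 1.30% lower, and the median was 1.52. LRP1B, MACROD2, CTNNA3 and AUTS2 had no region in any library and could not be called, so the count and these shares are not like for like. IMMP2L had a log2 difference of 1.22 (adjusted p = 0.271), and the other 7 genes lay between -0.21 and 0. Regions of at least 1000 bp gave IMMP2L 2.93 and a call (adjusted p = 0.0172), as did 1 tag threshold for all libraries (2.14, adjusted p = 0.0353). A replicate block, which takes libraries of the same number together, kept the 1.22 and gave a call (adjusted p = 0.0209). The labels do not say what a replicate number shares. Divided by the chromosome in the same library, IMMP2L was at -0.015 (adjusted p = 0.986). The other 7 genes were lower in WT PMA on that scale, by -1.18 to -1.76. Their own levels stayed at or near 0 while the rest of the chromosome was higher. The share of all windows that were lower on that scale was not counted. In KO PMA against KO mock, 0 of 8 were higher and 2 were lower, WWOX by -1.08 (adjusted p = 0.00419) and CNTNAP2 by -0.58 (adjusted p = 0.0342), where 17.6% of all were higher and 5.15% lower. The CNTNAP2 call was lost when either KO mock, either WT PMA or the first KO PMA library was left out. These calls rest on the same KO mock regions as those of KO mock against WT mock.

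**Figure D5:**
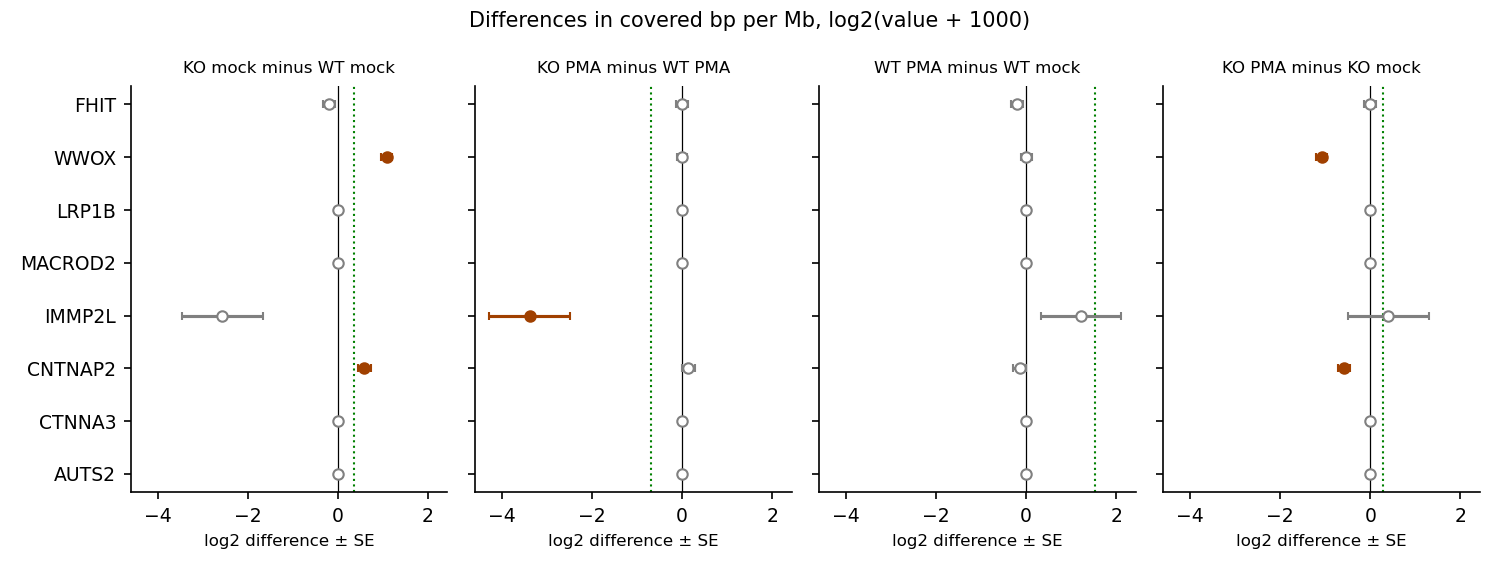
Log2 difference in covered bp per Mb (horizontal axis, after adding 1000 bp per Mb, ± SE) of the 8 gene bodies in the 4 contrasts. Filled points passed an adjusted p of 0.05, and the dotted line is the median over all windows and gene bodies. In WT PMA minus WT mock all 8 genes lie left of the dotted line at 1.52. LRP1B, MACROD2, CTNNA3 and AUTS2 had no region in any library, so their differences are fixed at 0.

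Bins of 100 kb placed the IMMP2L difference. Of 127 bins centred in the 8 genes, 106 were empty in all 8 libraries and 8 were covered in at least 2 (6.30%, against 31.4% of 30338 bins in all), 7 of them in IMMP2L. In KO PMA against WT PMA, 3 bins were lower and 0 higher, all 3 at the 5′ side of IMMP2L, where 21.9% of all bins tested were lower and 15.9% higher. The bin chr7:111100001-111200000, which holds nearly all of the first 100 kb of the gene, had 23.2 and 9.74 kb in WT PMA against 2.05 and 0.5 kb in KO PMA, a log2 difference of -2.91 (SE 0.72, adjusted p = 0.0283). The next bin into the gene, chr7:111000001-111100000, had 5.10 and 2.06 kb in WT PMA and 0 in both KO PMA libraries, with -2.11 (adjusted p = 0.00894). The third, chr7:110900001-111000000, had 3.5 and 1.65 kb in WT PMA against 0.5 and 0 kb in KO PMA, with -1.50 (adjusted p = 0.0324). The 3 bins were picked by that call, so the separation of their WT PMA and KO PMA libraries adds no support. Only 1 of the 3 was called without WT PMA replicate 1, without KO PMA replicate 1 or without KO PMA replicate 2. In the other contrasts limma called no bin of the 8 genes: at an unadjusted p under 0.05 there were 4 in KO mock against WT mock, 1 in WT PMA against WT mock and 0 in KO PMA against KO mock. Over all bins, at an adjusted p under 0.05, 17.3% were higher and 3.47% lower in the first of these contrasts. The shares were 32.1 and 2.25% in the second, and 13.1 and 5.34% in the last. The share of all bins at an unadjusted p was not counted, so the unadjusted counts have no background.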

How the data were processed

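γH2AX ChIP-seq libraries of K562 cells were grouped by the sample titles. Reads were handled with CASAVA 1.4 and BWA on hg19 and regions with HOMER, per the submitters' processing notes. Each list came from 1 library set against the input of WT mock cells, per the file headers, and the authors kept windows of 500 bp that were at least 2-fold over that input. The probabilities in the caller's own model were 0.001 for tags and 0.0001 against input, with at most 1 tag per bp. As deposited, a region's signal is its tags per 10 M tags of the library, with the input signal beside it. The deposited score is HOMER's region score, and the deposited fold is the authors' ratio of tags to input. Both are the authors' values and only described, ranked or filtered regions.

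From the lists, covered length was computed per gene body, per 1 Mb window and per 100 kb bin. A chromosome ended at its last called position in any library. Windows and bins were tested with limma 3.58.1 (mean-variance trend) in R 4.3.3 on log2 values after adding 1000 bp, all 8 libraries in 1 fit, two-sided, Benjamini-Hochberg adjusted at 0.05. Log2 differences on this scale understate changes of little-covered DNA. For the contrasts, windows and bins were covered in at least 2 libraries, and all 8 gene bodies were kept. The fit was tried on simulated data for KO mock against WT mock only, with normal spread around each window mean. Those data had no floor at 0, so they do not cover gene bodies at or near 0. Python 3.11.15, numpy 2.4.6 and pandas 2.3.3 served for the rest.

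All 8 genes were named, and 1 further gene of the list is not reported here. By rule, up to 3 bins per contrast and direction and up to 3 reproducible regions per group were to be named, at most 1 per gene. The bins next to the first in IMMP2L were named after their values were seen, as were the flanks described one by one. The members and lists were chosen with earlier results of these data known. Alternatives were other offsets, references (the flanks among them, whose results the report also gives), region filters, scalings, window sizes, a replicate block and leaving out each library. The windows of the comparison with the chromosome were also filtered, an alternative chosen after seeing the data. Other fragile site genes, and exons and introns of hg19, were not analysed here.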

Additional observations from a re-analysis of the deposited data

Results flagged for a closer look

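The response of WWOX to PMA differed between genotypes in limma's interaction test. Covered length was 0 in all WT libraries and in KO PMA, and 1.35 and 0.898 kb per Mb in the 2 KO mock libraries, so the log2 response in KO minus that in WT was -1.08 (SE 0.17, adjusted p = 0.0121). It was the only one of the 8 gene bodies called lower in this test, where 27.5% of all windows and gene bodies were lower and 1.82% higher, and the median over all was -1.10, close to the value of WWOX. The difference rests on 5 regions of 500 bp, none of which was called in another library. The usual share of such regions was not counted. It did not pass with regions of at least 6-fold, regions of at least 1000 bp, 1 tag threshold for all libraries, the same number of regions per library, or division by the chromosome.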

How the results depend on the processing

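Of 1893 values recomputed under the alternatives, 1639 kept their direction and side of the threshold, or for counts stayed within 1.5 times, and 24 changed sign. The cause of the changes was not tested, except where an alternative leaves fewer regions or libraries. Except for the flanks, the share over all windows and bins was not counted under the alternatives. Counts of gene bodies and bins given below thus have no background beside them.

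The number of gene bodies below the chromosome mean (7 of 8 in both WT groups, 8 in both KO groups) became 2 and 4 in the mock and PMA groups of WT cells and 2 and 3 in those of KO cells when set against the flanks, with 1 above in WT PMA, FHIT at 0.21 in WT mock, and IMMP2L at 0.42 in KO mock and 0.73 in KO PMA. Against the median window, 2 in WT mock, 4 in KO mock and 5 in KO PMA were below and 1 above in WT mock, WT PMA and KO mock each, with FHIT at 0.21 in WT mock, IMMP2L at 0.99 in KO mock and 0.80 in KO PMA, and CNTNAP2 at 0.72 in KO mock. One gene body was above the mean in WT PMA with an offset of 4000 bp, 1 tag threshold, regions of at least 1000 bp or the same number of regions, and 1 in WT mock with regions of at least 6-fold or without the first and last 1 Mb of chromosomes. IMMP2L in WT mock was at -0.20 under 1 tag threshold for all and at -1.11 when only regions of 1000 bp or more counted.

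Divided by the chromosome, KO mock against WT mock gave 0 gene bodies higher and 2 lower (WWOX and IMMP2L), KO PMA against WT PMA 1 higher (FHIT) and 2 lower (WWOX and IMMP2L), WT PMA against WT mock 7 lower (all but IMMP2L), KO PMA against KO mock 3 lower (WWOX, MACROD2 and CNTNAP2), and the interaction 0 lower. Signs changed for WWOX (-1.08) and, without a call, FHIT (0.33) in the first contrast, IMMP2L in the third (-0.015) and the fourth (-0.30), and CNTNAP2 in the interaction (0.091). With each library centred on its median the same contrasts gave 0 higher and 2 lower, 7 higher, 7 lower (IMMP2L, not called, at -0.82), 1 lower, and 6 higher and 0 lower. Centring adds the same amount to every gene body in a contrast, 1.79 in the interaction, where LRP1B went from 0 to that value. The changes of sign of WWOX (0.71), IMMP2L (0.97) and CNTNAP2 (1.35) in the interaction are this shift. Bins were then lower in 3 cases for KO mock against WT mock and in 1 for WT PMA against WT mock.

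With an equal number of top-scored regions per library, KO mock against WT mock had 0 gene bodies higher and 1 lower, KO PMA against KO mock 0 lower (IMMP2L, not called, at -0.32), and the interaction 0 lower. Bins were 1 higher and 4 lower, 1 lower, 2 lower and 1 lower in the 4 contrasts, in the order KO mock against WT mock, KO PMA against WT PMA, WT PMA against WT mock, KO PMA against KO mock. With 1 tag threshold 1 gene body was higher in WT PMA against WT mock, and bins were 1 higher, 1 lower, 1 higher and 1 lower in that order. Regions of at least 1000 bp gave 0 gene bodies higher in KO mock against WT mock, 1 higher in WT PMA against WT mock, 0 lower in KO PMA against KO mock and in the interaction, and bins 1 lower in KO PMA against WT PMA and 1 higher in WT PMA against WT mock. Regions of at least 6-fold gave 0 in the same places (CNTNAP2 -0.14 in KO mock against WT mock, CNTNAP2 0.14 in the interaction) and 0 bins lower in KO PMA against WT PMA. No filter, or an offset of 250 bp, gave 0 gene bodies lower in KO PMA against WT PMA and 1 in KO PMA against KO mock, with 0 bins lower in the first case without the filter and 2 bins lower in KO mock against WT mock with the offset.

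The replicate block gave 1 gene body above the mean in WT mock (IMMP2L, adjusted p = 0.0128) and in WT PMA (IMMP2L, adjusted p = 0.0129), 1 lower in KO mock against WT mock (IMMP2L, adjusted p = 0.00448) and 1 higher in WT PMA against WT mock (IMMP2L at 1.22, adjusted p = 0.0209). Bins were 2 lower in the first of these contrasts and 1 higher in the second. Deviations of same-numbered libraries correlated at -0.075 to 0.26 over 1917 windows, highest between WT mock and WT PMA. The labels do not say what a replicate number shares, so the numbers were not taken as pairs.

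Leaving out 1 library at a time moved the gene bodies higher in KO mock against WT mock from 1 to 2 and lower from 0 to 1. It moved those lower in KO PMA against WT PMA from 0 to 1, in KO PMA against KO mock from 1 to 2 and in WT PMA against WT mock from 0 to 1, and those higher in the interaction from 0 to 1. Bins lower in KO PMA against WT PMA ran from 1 to 4, and bins in the other contrasts from 0 to 1. IMMP2L ran from -0.59 to 1.39 in KO PMA against KO mock and from -1.80 to 0.17 in the interaction.

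Depth set each library's tag threshold, and single windows at or just above that threshold carry all values of FHIT, WWOX and CNTNAP2.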
